A study of Arabidopsis thaliana with 8 samples.

Results

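The mitochondrial gene nad5 encodes a membrane-arm subunit of respiratory complex I. It is described here across 6 ribosome profiling libraries, in which it is 1 of 33 mitochondrial genes measured, and across 2 RNA-seq libraries, in which it holds 33 of 434 listed RNA editing sites. The members were taken by gene name: the nad5 row of the footprint table and every site listed under nad5. They were chosen with earlier results of these data known. All plants were Arabidopsis thaliana of the Col-0 background, grown in a greenhouse for 10 to 12 weeks under long days, and flowers were sampled. Ribosome profiling sequences the short mRNA pieces that ribosomes shield from nuclease. It was made from mtl1, a pentatricopeptide repeat (ppr) protein mutant whose label names the translation of nad7 mRNA, from mtsf1, a ppr mutant whose label names the stability of nad4 mRNA, and from wild-type Col-0, with 2 libraries (A and B) each. The RNA-seq came from total RNA of wild-type Col-0 flowers depleted of ribosomal RNA, also with libraries A and B. The labels name no allele. They leave unsaid whether the A and B libraries had separate plants as their source, so each p-value reflects spread among libraries that may be no more than technical. Mutant RNA-seq was not analysed here, so a difference in footprints can reflect mRNA abundance, translation or both, and in bulk flowers fewer cells with the mRNA and less of it per cell cannot be told apart. The tables hold mitochondrial genes only, so the flower label was not checked against marker genes.

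Complex I takes electrons from NADH and pumps protons across the inner mitochondrial membrane. NAD5, with NAD2 and NAD4, is one of its antiporter-like proton-pumping subunits and lies at the far end of the membrane arm. In plant mitochondria the nad1, nad2 and nad5 mRNAs are each pieced together from separately transcribed RNAs by trans-splicing, and many cytidines are deaminated to uridines by RNA editing, which pentatricopeptide repeat proteins guide to their sites. Editing often restores a conserved amino acid.

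The reading frame of nad5 in the TAIR10.1 mitochondrial genome (MT) was 2010 bases long, the longest of the 31 genes with an assigned coding length, and coded for 669 residues. It was assembled from 5 segments, all on the plus strand. Segment 1 (MT:234352-234581, 230 bases) held 1 listed editing site. Segment 2 (MT:235413-236628, 1216 bases) held 21 sites. Segment 3 (MT:360107-360128) had 22 bases and no listed site. Segment 4 (MT:26817-27211, 395 bases) held 6 sites, and segment 5 (MT:28190-28336, 147 bases) held 5. The segments thus lie in 3 distant parts of the genome, and the annotated order of the exons is not their order on the chromosome. Sites are named below by their deposited transcript position, which exceeds the coding position by 71 at every nad5 site. The sources used here do not give the authors' genome build. All positions come from matching the deposited sequence around each site to TAIR10.1, with C and T counted as the same base. This gave 0 mismatches for 32 sites and 1 mismatch for site 313, near the start of segment 2.

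The segment 3 exon is shown in capitals because it is the short piece that trans-splicing joins to its neighbours. The other 2 stretches, written as the genome has them on the plus strand, hold the densest run of sites (MT:235721-235916, segment 2) and all sites of segment 5 (MT:28212-28293), and there the capitals mark the cytidines listed as edited.
segment 3: GATATGATGATTGGTTTAGGTA
segment 2 run: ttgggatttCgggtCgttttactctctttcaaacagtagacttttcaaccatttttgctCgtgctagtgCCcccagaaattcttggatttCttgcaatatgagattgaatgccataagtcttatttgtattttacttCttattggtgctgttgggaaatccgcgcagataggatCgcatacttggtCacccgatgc
segment 5 run: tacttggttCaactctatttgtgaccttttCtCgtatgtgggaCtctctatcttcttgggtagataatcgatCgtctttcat
In the segment 2 run 9 sites lie within 196 bases, and in the segment 5 run 5 sites lie within 82 bases. The segment 5 run holds the least edited site of nad5, 2000, between fully edited ones.

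The 5 sites of nad5 with a level below 90% in at least 1 library are shown next, as the deposited file gives them in edited form. Each runs from 20 bases before the site to 5 after it, and the capital marks the edited position, at MT 235791, 235983, 27013, 27079 and 28255 in the order of the lines.
site 680: atttttgcttgtgctagtgtTcccag
site 872: atggtaacagctggcgttttTatgat
site 1736: agtactttttgtaatcgactTtatag
site 1802: gactttctagtcagatcgttTctgcg
site 2000: acctttttttgtatgtgggaTtctct
At 3 of these 5 sites the base before the edited one is T, at site 680 it is the neighbouring edited base, a C in the genome, and at site 2000 it is A. Over all 33 listed nad5 sites, T preceded 21 (63.6%), C 7, A 4 and G 1, against T at 252 (62.8%), C at 123, A at 16 and G at 10 of the 401 listed sites of other genes.

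Of the 33 sites, 27 change an amino acid in the protein and 6 do not. Changes to leucine (12) or phenylalanine (7) made up 19 of the 27. By kind they were serine to leucine at 7 sites, serine to phenylalanine at 5, proline to leucine at 5, arginine to cysteine at 3, threonine to isoleucine at 2, leucine to phenylalanine at 2, and 1 each of proline to serine, threonine to methionine and alanine to valine. Codon position 2 held 21 of these sites and codon position 1 held 6. All 6 synonymous sites were at codon position 3. Changes are written with the residue of the genome codon first, then the residue's number from the start methionine, then the residue after editing. RefSeq's annotation of nad5 carries 37 editing notes, 28 standard and 9 marked as of minor frequency. All 28 standard positions and 4 minor ones are among the 33 listed sites, and the 5 noted positions that are not listed are all minor. The remaining listed site, 1346, has T in the TAIR10.1 genome.

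The editing level is the share of T among T and C reads at a site. A site was used where both RNA-seq libraries had at least 20 such reads, which kept 30 of the 33 nad5 sites and 196 of the 401 other sites. Most of these 30 nad5 sites were at or near 100%, and a smaller group was lower. A mean level of at least 90% was found at 25 sites, 2 lay between 10% and 90%, and 3 lay below 10%. The 25 include site 1346, which has T in the genome. The mean over the 30 sites was 87.2% ± 0.0373 (SD, n = 2 libraries). It was 87.2% in library A and 87.2% in library B, but it describes few single sites, since 22 were at 100% in both libraries. The small SD also averages shifts in opposite directions. In library B site 680 was lower by 12.9 percentage points and site 872 was higher by 14.8. The other genes had 170, 13 and 13 sites in the same classes, with a mean of 89.3% over their 196 sites. Among the 15 genes with at least 5 used sites nad5 was 7th from the lowest mean, between atp4 (86.5%) and nad7 (89.2%).

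Every used nad5 site that changes an amino acid was edited nearly completely. All 24 had a mean level of 98.4% or more, and 21 had no C read in either library. Library A had 2 C reads of 3195 at these sites (0.0626%, Wilson 95% interval 0.0172% to 0.228%), and library B had 15 of 6544 (0.229%, 0.139% to 0.378%). Intervals and limits here cover counting error only, and reads at neighbouring sites can be the same reads. Site 313 (P81L) held 2 and 13 of these C reads, and its level was 98.9% in library A (185 reads) and 97.8% in library B (590 reads). The remaining ones were 1 read each in library B at sites 445 (P125L) and 906 (P279S). The shallowest used site of this kind in library A was 1561 (P497L). There the absence of C reads still allows up to 13.0% of C in library A (23 reads) and 1.52% in library B (197 reads). At the deepest, 784 (S238L, 1035 reads in library B), it allows up to 0.290%. In the other genes 159 of 163 sites that change a residue were at 90% or more, 2 lay between and 2 were below 10%.

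Of the 3 nad5 sites left out, site 565 (T165I) had 1 read in library A and 5 in library B and was the shallowest. Site 429 (L120F) had 5 and 17, and site 1621 (T517I) had 18 and 29. All of their T and C reads were T, which at these depths cannot separate full from partial editing.

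**Figure D1:**
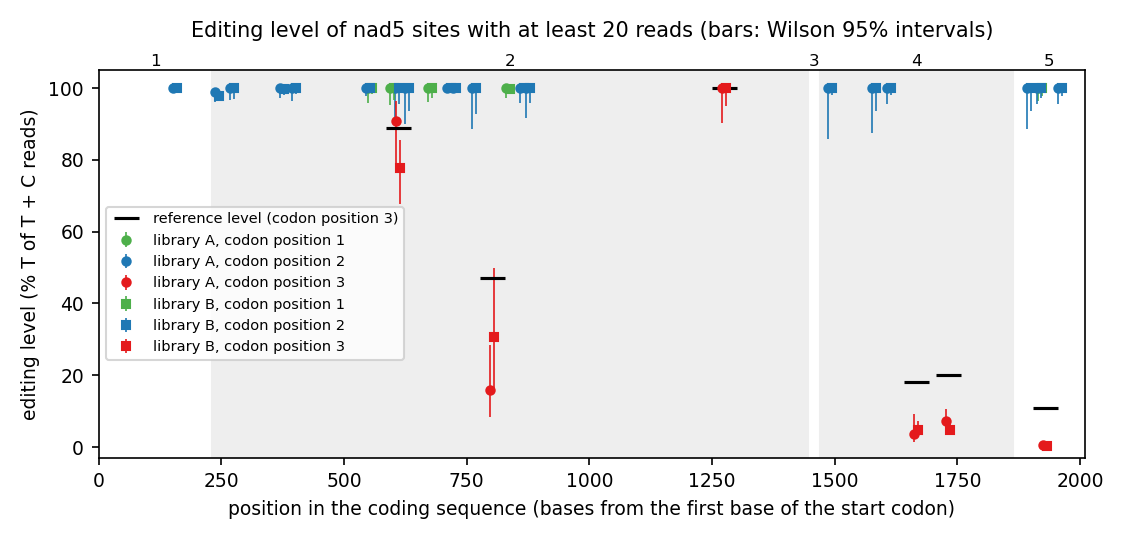
Editing level (% T of T and C reads, y axis) of the 30 nad5 sites with at least 20 reads in both Col-0 RNA-seq libraries, against position in the coding sequence (bases, x axis), with circles for library A, squares for library B, colours for codon position and Wilson 95% intervals. Sites at codon positions 1 and 2 lie at 97.8% or above, while 5 of the 6 at codon position 3 lie at 90.7% or below, and black dashes give the deposited reference level of the codon position 3 sites.

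The synonymous sites spanned the range from 0.338% to 100%. Site 1346 (I425I), the one with T in the genome, had T in all 36 reads of library A and all 74 of library B, which is also the unedited base of that assembly. The other 5 are taken in order along the transcript.

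Site 680 (A203A) lies beside site 679 (A203V), in the same codon, and was read by the same number of reads, 43 in library A and 81 in library B. Site 679 was T in all of them. Site 680 was T in 90.7% (78.4% to 96.3%) of library A and 77.8% (67.6% to 85.5%) of library B. With the first of the pair edited the codon reads valine whichever base site 680 holds.

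Site 872 (F267F) had the level nearest the middle of the range, with 16% (8.34% to 28.5%) of 50 reads in library A and 30.8% (16.5% to 49.99%) of 26 reads in library B. It was the one nad5 site with fewer reads in library B, and its intervals overlap.

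Sites 1736 (L555L) and 1802 (F577F), in segment 4, were weakly edited in both libraries. Site 1736 stood at 3.70% (1.45% to 9.14%) of 108 reads in library A and 4.80% (3.09% to 7.37%) of 396 in library B. Site 1802 stood at 7.34% (4.98% to 10.7%) of 327 reads in library A and 4.78% (3.59% to 6.33%) of 942 in library B.

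Site 2000 (D643D), in segment 5, was the deepest and least edited. It was T in 0.584% (0.296% to 1.15%) of 1369 reads in library A and in 0.338% (0.202% to 0.567%) of 4140 in library B. For comparison, reads with A or G, which this editing does not make, were summed over all nad5 sites. They were 2 of 5154 in library A (0.0388%) and 11 of 12265 in library B (0.0897%).

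In other genes 10 of 30 synonymous sites were at 90% or more, 9 lay between and 11 lay below 10%, so weak editing of synonymous sites was not confined to nad5. The median level over synonymous sites was 14.7% in nad5 and 16.4% in the other genes. Without site 1346, which has T in the genome, the nad5 median was 6.06% over 5 sites, with 0 at 90% or more. Sites of other genes were not split by genome base. The difference between nad5 and other genes was not tested, since sites are not independent replicates.

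**Figure D2:**
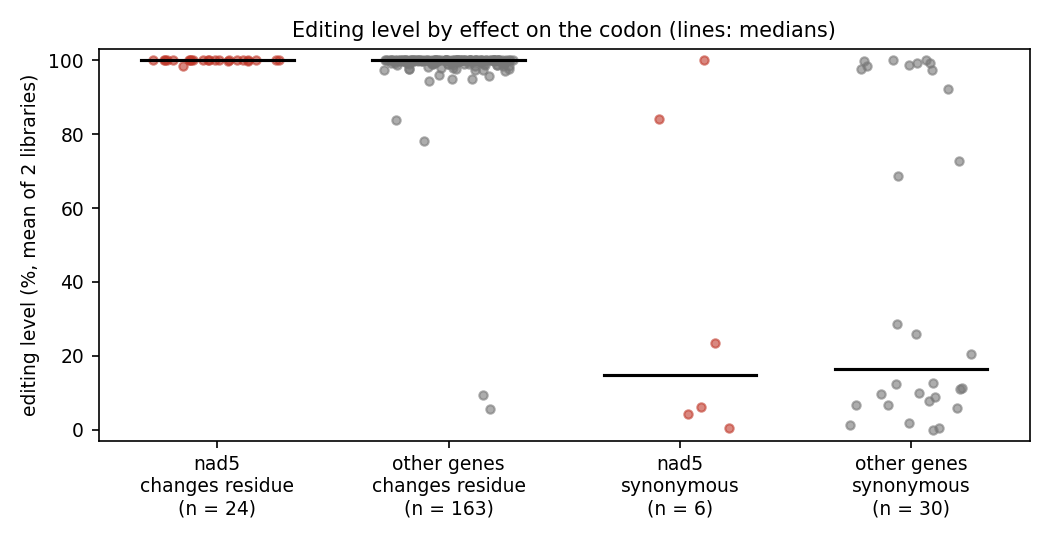
Mean editing level of 2 Col-0 RNA-seq libraries (%, y axis) at every site with at least 20 reads in both, by effect on the codon, for nad5 (red) and for all other genes (grey), with horizontal lines at the medians. The 24 residue-changing nad5 sites lie at 98.4% or more. The 6 synonymous ones have a median of 14.7%, or 6.06% for the 5 with C in the genome.

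No nad5 site was called different between the RNA-seq libraries. Fisher's exact test (two-sided, site by site), Benjamini-Hochberg adjusted across the 226 used sites, called 0 of 30 nad5 sites, against 1 site in the whole series (0.442%), and no nad5 site had an unadjusted p below 0.05. The smallest unadjusted values were 0.0871 at site 680, lower by 12.9 percentage points in library B, and 0.0891 at site 1802, and both had an adjusted p of 1. Site 872, higher by 14.8 points in library B, had a p of 0.150. Differences of this size at sites 872 and 680 did not pass the test at these depths, and the power to detect them was not computed.

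The deposited tables also carry a reference level for each site, whose origin the sources used here do not give. The observed mean was within 5 percentage points of it at 26 of 30 nad5 sites and 138 of 196 other sites. The 4 nad5 exceptions were the sites with a reference below 50%, and all 4 were below their reference in both libraries. Site 872 was farthest off, with an observed mean of 23.4% against 47% in the reference. Site 1736 had 4.25% against 18%, site 1802 had 6.06% against 20%, and site 2000 had 0.461% against 11%. The same 4 sites are those that RefSeq marks as of minor frequency. In other genes 15 of 22 sites with a reference below 50% were below it in both libraries and 3 were above it in both, with a median difference of -6.12 points over the 22, against -13.8 points over the 4 of nad5. At site 680 the mean of 84.2% was within the reference's given spread of 10 points around 89%.

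Read depth along nad5 was uneven, with a similar profile in both libraries. Summed over the 33 sites, depth was 5154 reads in library A and 12265 in library B. Per site the median was 84 (range 1 to 1369) in library A and 164 (range 5 to 4144) in library B. The sums are 10.99% and 12.2% of the 46892 and 100704 reads summed over all listed sites. A read that covers several sites is counted at each of them in these sums. By median depth nad5 ranked 6th of the 26 genes with at least 5 listed sites in each library. Library B had more reads at 32 of the 33 sites, with a median ratio to library A of 1.95 and a range of 0.520 to 8.61. Over the 33 sites the log2 depths of the libraries had a Pearson's r of 0.937 and a Spearman's rho of 0.904, given as a description, since neighbouring sites share reads and both libraries share the sequence around each site.

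By segment, the site of segment 1 (226, P52L) had 377 reads in library A and 702 in library B. The median depth was 88 and 118 in segment 2, 55 and 203 in segment 4, and 84 and 164 in segment 5. Depth therefore showed no steady slope from the start of the mRNA to its end. Depth also changed within segments: sites 784 (S238L) and 796 (S242L) had 570 and 490 reads in library A and 1037 and 859 in library B, while site 747 (L226F), 37 bases upstream of 784, had 96 in library A and 128 in library B.

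Site 2000 had the most reads in both libraries. It had 13.6 times the reads of site 1989 (R640C), 11 bases upstream, in library A (1369 against 101) and 23.0 times in library B (4144 against 180). Site 2029 (S653L), 29 bases downstream, had 84 and 164 reads. Site 2000 alone held 26.6% of the reads summed over nad5 sites in library A and 33.8% in library B. Its neighbours were T in every read, so deep unedited coverage stands between shallow edited coverage on both sides, and reads that span both sites cannot make up most of the depth at site 2000. In other genes, 6 sites edited below 10% had another used site within 50 bases, and their depth was 0.356 to 1.20 times that neighbour's in library A and 0.345 to 2.61 times in library B. Among sites edited at 90% or more in other genes the same ratio reached 19.2 in library A and 13.0 in library B.

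Whether other genomic copies could take or give reads was looked up in the assembly. The spliced 41-base window around each site occurred once in the mitochondrial genome for 32 of 33 sites, and the window of site 313, which crosses the junction of segments 1 and 2, was not found. For 19 of the 22 sites in segments 1 and 2 the same window also occurred on nuclear chromosome 2, and for 0 of the 11 sites in segments 4 and 5, site 2000 included. No window occurred elsewhere in the nuclear or plastid genome. Only exact matches of all 41 unedited bases were counted, so a copy that differs at any base of a window would be missed. The sources used here do not give how reads matching several places were counted, and the part of the copy in the depth or level of segments 1 and 2 was not tested.

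**Figure D3:**
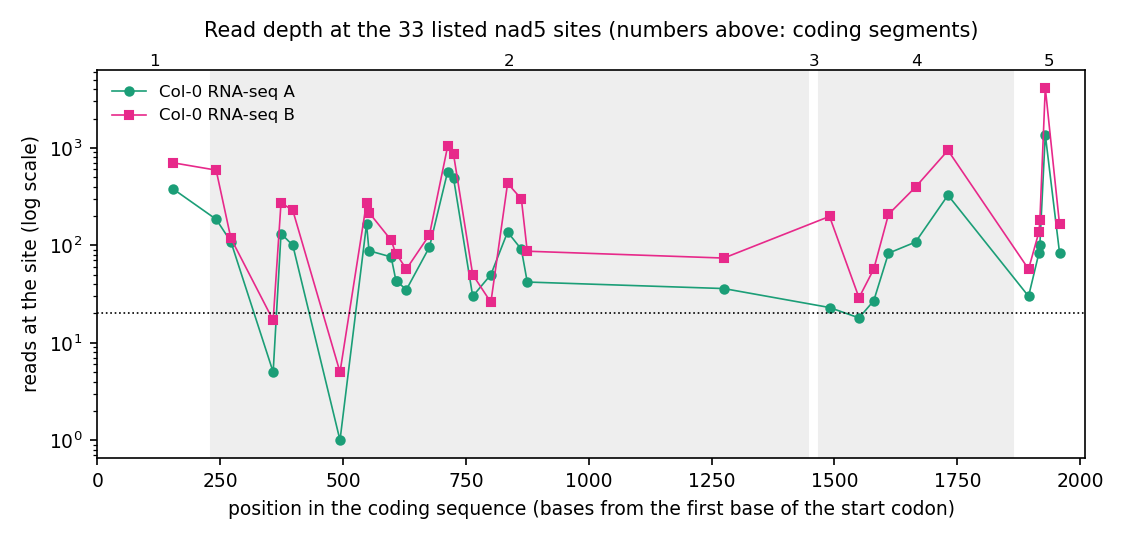
Reads at each of the 33 listed nad5 sites (log scale, y axis) against position in the coding sequence (bases, x axis) in Col-0 RNA-seq library A (green circles) and library B (pink squares), with the coding segments numbered above, alternate ones shaded, and the minimum of 20 reads dotted. Both libraries peak at site 2000 near the end of the coding sequence, with 1369 and 4144 reads, and are lowest at site 565, with 1 and 5.

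In ribosome profiling the deposited values are normalized counts, rounded by the authors, so their read depth is unknown. As a check of the labels, nad7 had 460 and 394 normalized counts in mtl1, against 8132 and 6785 in Col-0, and nad4 had 216 and 207 in mtsf1, against 13818 and 11147 in Col-0.

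Footprints on nad5 did not pass the test in either mutant. There were 19061 (library A) and 14767 (library B) normalized counts of nad5 in mtl1, 13715 and 12360 in mtsf1, and 15349 and 15375 in Col-0. Library A of mtl1 was the highest of the 6 and both mtsf1 libraries were lower than both of Col-0, while the mtl1 libraries lay on either side of Col-0. The means were 16914 ± 3036 in mtl1, 13038 ± 958 in mtsf1 and 15362 ± 18.4 in Col-0 (SD, n = 2 each).

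With limma on log2(value + 1), in 1 fit over all 33 genes and 6 libraries with Benjamini-Hochberg adjustment, nad5 stood at 0.13 (log2; SE 0.23, 95% interval -0.34 to 0.59, adjusted p = 0.628) in mtl1 against Col-0, at -0.057 without mtl1 library A, and at 0.22 when the libraries were scaled to equal totals. Of all 33 genes 33.3% were called in that comparison, 11 genes, or 1 when each gene kept its own variance. In mtsf1 nad5 stood at -0.24 (SE 0.23, interval -0.70 to 0.23, adjusted p = 0.393) against Col-0, and at 0.10 with equal totals, so its direction depends on the scaling. There 48.5% of all genes were called, 16 genes, or 4 with each gene's own variance. Between the mutants nad5 stood at 0.37 in mtl1 against mtsf1 (SE 0.23, interval -0.10 to 0.83, adjusted p = 0.285), and at 0.12 with equal totals, with 24.2% of genes called, 8 genes. The intervals leave room for ratios to Col-0 of 0.792 to 1.51 in mtl1 and of 0.615 to 1.17 in mtsf1, so a p above the threshold does not show that nad5 was the same in these genotypes. The smallest p of an exact permutation test with 2 libraries a side is 0.333, and that test was not used. The median gene stood at -0.13 in mtl1 and at 0.03 in mtsf1 against Col-0, and both mutants were compared with the same Col-0 libraries.

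**Figure D4:**
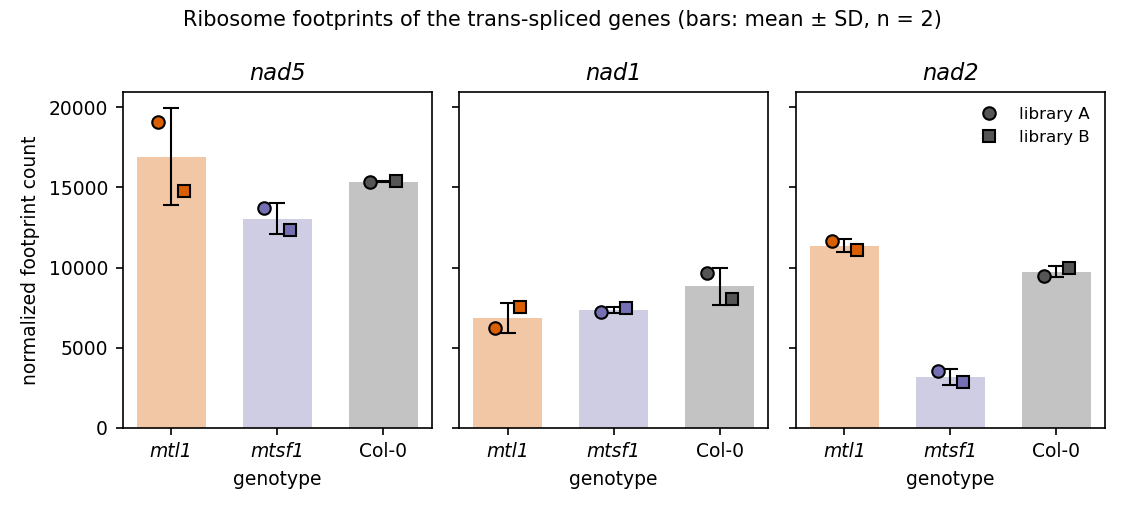
Normalized footprint counts (y axis, from 0) of the 3 trans-spliced genes nad5, nad1 and nad2 in mtl1, mtsf1 and Col-0, with circles for library A, squares for library B, and bars and whiskers for mean ± SD (n = 2 each). The nad5 values run from 12360 to 19061, and nad2 stands at 3531 and 2833 in mtsf1 against 9486 and 9988 in Col-0.

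The spread between libraries of one genotype was itself uneven. Libraries A and B of mtl1 differed by 0.37 for nad5 on the log2 scale, the 28th smallest of 33 genes (median gene 0.20). They differed by 0.15 in mtsf1, the 10th smallest (median gene 0.27), and by 0.0024 in Col-0, the smallest of all genes (median gene 0.31). The SD of the nad5 Col-0 values is thus smaller than the typical spread of these libraries, and the test above used the spread shared by all genes. Over all 6 libraries nad5 spanned 0.62 log2 units (1.54-fold), the 6th smallest range of the 33 genes.

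Among the other 8 complex I genes, the call differed by gene and by mutant. In mtl1 2 of 8 were lower than in Col-0 by the same limma test and 6 were not called: nad7 (-4.12, adjusted p = 8.49e-31) and nad9 (-1.16, adjusted p = 3.27e-05), which encode subunits of the matrix arm. Of all 33 genes 6 (18.2%) were lower in that comparison. In mtsf1 3 of 8 were lower and 5 were not called: nad4 (-5.87, adjusted p = 3.28e-43), nad2 (-1.62, adjusted p = 4.57e-09) and nad9 (-0.98, adjusted p = 0.000178). Of all 33 genes 7 (21.2%) were lower there. With each gene's own variance, nad9 was no longer called in mtl1 (adjusted p = 0.0779, limma fit without moderation) or in mtsf1 (adjusted p = 0.0648), while nad7 in mtl1 and nad4 and nad2 in mtsf1 still were. The median of the 8 was -0.31 in mtl1 and -0.17 in mtsf1. Of the 7 membrane-arm genes, nad5 included, 0 were called in mtl1 in either direction, beside 33.3% of all genes, and 2 were lower in mtsf1 and 0 higher.

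**Figure D5:**
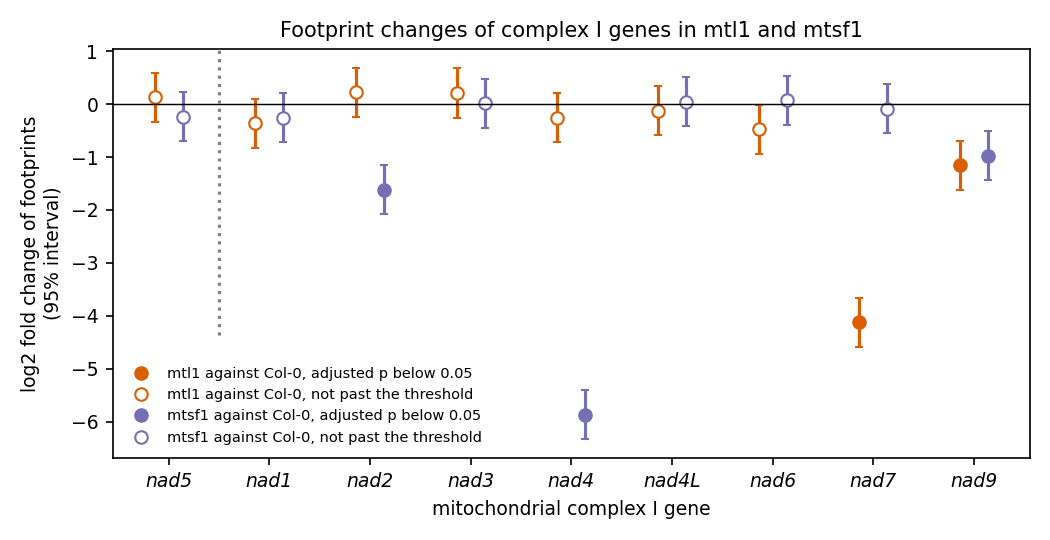
Log2 fold change of footprints (y axis, with 95% intervals) of the 9 mitochondrial complex I genes (x axis, nad5 first) in mtl1 (orange) and mtsf1 (purple) against Col-0, with filled points for adjusted p below 0.05. The nad5 intervals include 0 in both mutants, while nad7 and nad9 lie below 0 in mtl1 and nad2, nad4 and nad9 in mtsf1.

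The 3 trans-spliced genes did not share 1 pattern. For nad1, a membrane-arm subunit next to the matrix arm, there were 6219 and 7537 normalized counts in mtl1, 7203 and 7480 in mtsf1, and 9643 and 8025 in Col-0. Its log2 differences from Col-0 were -0.36 in mtl1 (adjusted p = 0.217, limma) and -0.26 in mtsf1 (adjusted p = 0.392, limma), so it was not called in either. For nad2, an antiporter-like subunit as NAD5 is, there were 11643 and 11068 in mtl1, 3531 and 2833 in mtsf1, and 9486 and 9988 in Col-0, and it was lower in mtsf1 by the test above and not called in mtl1 (0.22, adjusted p = 0.421, limma). It was higher in mtl1 than in mtsf1 (1.84, adjusted p = 2.76e-11, limma). Per kilobase of coding length, nad5 had 1.19 and 0.974 times the footprints of nad2 in mtl1, 2.83 and 3.18 times in mtsf1, and 1.18 and 1.12 times in Col-0.

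As a part of the total, nad5 took 7.33% and 5.57% of the table's normalized counts in mtl1 (6.45% ± 1.25), 6.02% and 5.71% in mtsf1 (5.87% ± 0.218), and 5.29% and 5.69% in Col-0 (5.49% ± 0.284; SD, n = 2 each). The mtl1 and Col-0 shares overlap, and both mtsf1 shares lay just above both of Col-0. Of the complex I footprints alone, nad5 made up 30.2% and 24.5% in mtl1, 27.6% and 25.8% in mtsf1, and 19.7% and 21.04% in Col-0. Both mutants were above Col-0 in both libraries on this scale, whose total holds nad7 and nad4, the genes that were lowest in the mutants. Against the median of the other complex I genes per kilobase, nad5 stood at 1.39 and 0.963 in mtl1, 0.855 and 0.867 in mtsf1, and 0.775 and 0.930 in Col-0. Both mtl1 values were the highest, and the mtsf1 values lay within the Col-0 range.

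By normalized count nad5 was the highest complex I gene in all 3 genotypes, and ranked 6th of 33 genes in mtl1, 6th in mtsf1 and 8th in Col-0. That order follows its length in part. Per kilobase of coding length it had 8415 ± 1511 normalized counts in mtl1, 6486 ± 477 in mtsf1 and 7643 ± 9.15 in Col-0 (SD, n = 2 each), which placed it 11th, 14th and 15th of 31 genes, and 3rd, 6th and 7th of the 9 complex I genes. Its neighbours in the Col-0 order were nad4 above, at 9286 and 7491 per kilobase, and nad2 below, at 6466 and 6808. The nad4 values lie on either side of those of nad5, so that pair cannot be ordered beyond its spread, while both nad2 values were below both of nad5.

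The genes whose profile over the 6 libraries was most like that of nad5, by root mean square difference of log2 values each centred on the gene's mean, were cox1 (0.147), cox2 (0.159), atp1 (0.189), atp4 (0.198) and rps4 (0.202). These encode subunits of cytochrome c oxidase (cox1 and cox2), of ATP synthase (atp1 and atp4) and of the small ribosomal subunit (rps4). In mtl1 cox1 stood at -0.02 and in mtsf1 at -0.25 on the log2 scale, and cox2 at -0.07 and -0.37, beside 0.13 and -0.24 for nad5.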

How the data were processed

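The members and the gene lists were chosen with earlier results of these data known. Per the submitters' processing notes, the tools were FastQC, cutadapt 1.9.1, Bowtie 1.1.2 and, for ribosome profiling alone, featureCounts 1.5.0-p2. The sources used here do not give the normalization, genome build, strand handling or editing caller. The deposited footprint score is a normalized count per gene and library that the authors rounded to whole numbers. The deposited editing tables give counts of reads with each base per site, and an observed and a reference editing fraction by the authors. Per the file headers, 2 further columns hold a status per site and were not used.

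Footprints were tested as log2(value + 1) with limma 3.58.1 (R 4.3.3), with a mean per genotype, over 33 genes above 0 in at least 2 libraries. P-values are two-sided with a threshold of 0.05. The prior of the variance was infinite, so all genes shared 1 SE, with 99 degrees of freedom behind each test in place of 3. Editing levels were recomputed from the counts with Wilson 95% intervals, and a count of 0 allows up to 3 reads. Replicates were compared with Fisher's exact test (scipy 1.17.1) and Benjamini-Hochberg adjustment (statsmodels 0.14.6). Both tests were run on simulated data, drawn with the same spread for every gene and, for Fisher's test, with counting error alone. Those runs do not show how the tests behave where genes or libraries differ in spread. Genes per kilobase exclude the 2 atp6 copies, and codons were read with their other bases as in the genome.

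Named were nad5, the other complex I genes, the 5 genes nearest in profile, the neighbours in the Col-0 order, and nad5 sites below 90%, deepest, shallowest or farthest from the reference. Sites used to describe depth were added after their values were seen. Sequences other than the deposited contexts are from RefSeq TAIR10.1.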

Additional observations from a re-analysis of the deposited data

Results flagged for a closer look

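Reads with A or G at listed nad5 sites, bases that C-to-U editing does not produce, were counted outside the comparisons above. Summed over sites, there were 2 in Col-0 RNA-seq library A (0.0388% of 5154 reads) and 11 in library B (0.0897% of 12265 reads). Library B was noted because 11 is above the 3 reads that a count of 0 allows. That limit describes a count of 0, so passing it is not a test of the 11 reads. At the sites of other genes the same share was 0.127% in library A and 0.0577% in library B.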

How the results depend on the processing

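With 2 libraries per genotype, 1 library can set a direction. Leaving out each replicate in turn put nad5 in mtl1 against Col-0 between -0.057 (without mtl1 A) and 0.31, in mtsf1 against Col-0 between -0.31 and -0.16, and in mtl1 against mtsf1 between 0.18 and 0.55. A left-out fit with 1 library in a genotype assumes that it varies like the others. With equal totals, nad5 stood at 0.22 in mtl1 and 0.10 in mtsf1 against Col-0, and at 0.12 in mtl1 against mtsf1. Between mtl1 and mtsf1 that scaling called 13 genes, 3 of them higher, in place of 8, also 3 higher. In mtsf1 against Col-0 it called 21, 14 of them higher, in place of 16, 9 higher. With each gene's own variance, 1 gene was called in mtl1 and 4 in mtsf1 against Col-0. The cause of these shifts was not tested. Over 16 alternatives for mtl1, 16 for mtsf1 and 17 for mtl1 against mtsf1, nad5 was not called in any, with adjusted p (limma) from 0.372 to 0.880, from 0.327 to 0.725 and from 0.169 to 0.727. The labels do not say whether libraries of the same letter were made together across genotypes. The differences between A and B over 33 genes correlated at 0.066 (mtl1 and Col-0), 0.0039 (mtsf1 and Col-0) and -0.136 (mtl1 and mtsf1). Such correlations cannot settle whether the letters are paired. A replicate block left nad5 at 0.13, -0.24 and 0.37 and called 10, 16 and 8 genes. The crossed pairing of mtl1 and mtsf1, chosen after seeing the data, called 11. The mean nad5 editing level was 88.4% at a minimum of 1 read, 87.6% at 10, 85.4% at 50 and 77.6% at 100, with other numbers of sites left. It was 59.96% with the reads of all sites summed, 86.8% without the site with T in the genome, and 87.2% to 87.6% with 1 library left out. Sites called different between libraries stayed at 0 in all 6 alternatives. Per kilobase, the nad5 share of footprints was 2.73% in mtl1, 2.48% in mtsf1 and 2.17% in Col-0. Footprint depth is unknown, and at sites with few reads the editing levels have wide intervals.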
